A study of Mus musculus with 16 samples.

Results

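The subject is a set of 48 genes of the cell division cycle, from the cyclins of G1 to the proteins that split a cell at the end of mitosis. They were followed in regulatory T cells (Tregs) and conventional CD4 T cells (Tconv) of mice with 2 forms of Foxp3. Each gene was represented by the probe set annotated to its symbol alone that had the highest mean over the 16 arrays. Of the 48 genes, 47 had such a probe set, and the mitotic cyclin gene Ccnb1 had none and carries no value. The whole series held 17097 genes, of which 8139 were bright enough to be tested, and 36 of the 48 were among these. CD4 T cells came from spleens of 6 week old NOD/LtJ mice, the strain that develops autoimmune diabetes, and received no treatment. WT samples carried the transgene Tg(Foxp3-EGFP/cre)1aJbs, in which Foxp3 control elements drive a fusion of EGFP and Cre, so they are reporter mice and not unmodified animals. KI samples carried the knock-in allele Foxp3tm2Ayr, described in the labels as Foxp3gfp, which puts GFP into the Foxp3 locus itself. There were 4 arrays in each of the 4 groups of WT Tregs, WT Tconv, KI Tregs and KI Tconv. The labels do not say whether these were separate mice or pools, so p-values measure the spread between these samples, which may be technical.

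The cell cycle runs on cyclins that switch cyclin-dependent kinases (CDKs) on in turn. D-type and E-type cyclins carry a cell out of G1, the MCM helicase is loaded by Cdc6 onto origins and unwinds DNA in S phase, and ribonucleotide reductase and thymidylate synthase supply the deoxynucleotides. Cyclin A and the B cyclins with CDK1 drive entry into mitosis, the kinetochore and its checkpoint hold chromosomes until they are attached, and the anaphase-promoting complex (APC/C) with Cdc20 ends mitosis by marking cyclin B for destruction. Most genes of the later steps are kept low in resting cells by the DREAM complex, which reaches their promoters through the CHR element, and are switched on in G2 by B-Myb and FoxM1, often together with CCAAT boxes bound by NF-Y. Genes of the earlier steps more often carry E2F sites. In the mouse spleen most Tconv rest, while a part of the Tregs divides at any time.

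The labels were checked first. Foxp3 lay between 9.72 and 10.16 (log2) in WT Tregs and between 9.39 and 10.05 in KI Tregs, against 4.24 to 4.96 in WT Tconv and 3.57 to 3.78 in KI Tconv, and the mean of 6 CD4 T cell markers was 10.15 to 10.42 on all 16 arrays. Of 4 Treg markers, 2 were lower in KI than in WT Tconv and 1 was higher in KI than in WT Tregs (limma, adjusted p under 0.05). Ikzf2, on that list, read 8.91 to 9.06 in WT Tconv and 8.02 to 8.37 in KI Tconv. The protocol in the labels states a single sort of CD3 and CD4 positive, GFP negative cells for all samples, the Tregs included, so how the Tregs were gated is not clear. Some arrays stood apart for the cell cycle genes. WT Treg 2 was the highest of the WT Tregs for 43 of the 47 genes, against 32.4% of all genes. WT Tconv 1 was highest of its group for 36 (32.8% of all genes) and KI Tconv 1 for 31 (23.0%), while KI Treg 4 was lowest of the KI Tregs for 39 (42.7%). The median over the 47 genes was 5.07, 6.72, 5.76 and 5.30 on WT Tregs 1 to 4 and 6.45, 7.07, 7.30 and 6.33 on KI Tregs 1 to 4. In Tconv it was 6.13, 4.85, 4.74 and 5.05 on WT arrays and 5.54, 5.03, 4.59 and 4.92 on KI arrays. Markers of other cells also varied between arrays of a group. The mean of 6 neutrophil markers ran from 3.30 to 6.41 in WT Tregs and 4.38 to 6.58 in KI Tregs, that of 5 B cell markers from 4.43 to 6.10 and 4.48 to 5.66, and that of 6 monocyte markers from 4.08 to 6.31 and 3.79 to 6.05. Of the 10 tested markers on these 3 lists none passed between KI and WT Tregs by limma, and 0 had an unadjusted p under 0.05. Between Tregs and Tconv, 1 of 3 tested B cell markers was higher in Tregs of each genotype. Of 3 tested monocyte markers 1 was higher in KI Tregs, and no neutrophil marker passed. The mean of 3 germinal centre and plasma cell markers was 7.00 to 9.29 in WT Tregs and 7.92 to 9.08 in KI Tregs, and none passed between them. Of these, Jchain read 2.31, 8.01, 7.61 and 9.13 on WT Tregs 1 to 4 and 6.89, 8.72, 5.21 and 8.55 on KI Tregs 1 to 4. Between Tregs and Tconv, 2 of these 3 markers and 2 of 4 CD8 T cell markers were higher in Tregs of each genotype. Cd8a read 6.22 to 6.63 in WT Tregs and 3.65 to 4.29 in WT Tconv, and 5.73 to 6.37 and 3.92 to 4.61 in KI mice. Another CD8 T cell marker was lower in WT Tregs, and the 1 tested NK cell marker was lower in Tregs of both genotypes. Erythroid precursors divide in the mouse spleen. The mean of the 5 markers on their list was 5.64 to 7.18 in WT Tregs and 5.44 to 6.79 in KI Tregs. On no array did Klf1 exceed 4.88 or Epor 3.70. Alas2 varied more, at 3.24, 4.47, 5.98 and 3.12 on WT Tregs 1 to 4. It read 3.29, 4.34, 3.68 and 3.20 on KI Tregs 1 to 4 and at most 4.67 in Tconv. The globin gene Hba-a1 read 12.52, 10.62, 11.13 and 8.24 in WT Tconv, 11.03, 10.25, 9.93 and 8.20 in KI Tconv, 9.24, 11.96, 12.49 and 9.86 in WT Tregs and 10.28, 12.01, 10.50 and 8.63 in KI Tregs, and did not pass between KI and WT Tregs (adjusted p = 0.8). The other tested marker of that list did: the transferrin receptor gene Tfrc, also used by dividing cells, was 0.35 higher in KI than in WT Tregs (SE 0.0836, adjusted p = 0.0304), at 9.10 to 9.43 against 8.72 to 9.04. Tfrc was also 0.46 higher in KI Tregs than KI Tconv by limma (adjusted p = 0.000233) and differed by 0.12 in WT (adjusted p = 0.3). The part of other cells in the results was not tested. In bulk RNA a higher level can come from more dividing cells or from more RNA in each, and these cannot be told apart.

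The promoters of the genes show how the set divides before any level is read. RefSeq (GRCm38.p6) gave 43 promoters for 40 of the 48 genes, each 300 bases long, from 250 bases before the annotated start to 50 after. The CHR element was searched as TTTGAA or TTTAAA, the CCAAT box as CCAAT and the E2F site as TTTCCCGC, TTTCGCGC, TTTGGCGC or TTTGCCGC, on both strands. Matches of different motifs may overlap and were each counted. Of the 27 promoters of genes that act in mitosis, 81.5% held a CHR match and 88.9% a CCAAT match, against 27.6% and 37.4% of all 32851 promoters, and 77.8% held both, against 10.7%. An E2F match was in 3.7% of them. Of the 16 promoters of G1, replication and nucleotide genes, 37.5% held an E2F match, against 2.26% of all promoters, 31.2% a CHR match and 68.8% a CCAAT match. Matches in mitotic promoters lay close to the start, with a median position of -17 for CHR, where 26 of 32 lay from -100 to 50, and of -66 for CCAAT, where 40 of 56 did. Positions over all promoters were not counted, so whether these lie closer to the start than in other genes was not tested. The 2 Prc1 promoters overlap, so the same matches count in both. These are matches of letters, not measured sites. The 5 promoters below belong to Ccnb2 and Cdc20, which rose between KI and WT Tregs, to Mki67, the textbook marker of dividing cells, to Cdc6, a replication gene that also rose, and to Melk, the mitotic gene with the greatest difference between WT Tregs and WT Tconv. They are written 5′ to 3′ on the gene's strand, with matches in capitals. They lie at chr9:70421505-70421804 (Ccnb2, minus strand), chr4:118437294-118437593 (Cdc20, minus), chr7:135716330-135716629 (Mki67, minus), chr11:98907901-98908200 (Cdc6, plus) and chr4:44300667-44300966 (Melk, plus).
Ccnb2: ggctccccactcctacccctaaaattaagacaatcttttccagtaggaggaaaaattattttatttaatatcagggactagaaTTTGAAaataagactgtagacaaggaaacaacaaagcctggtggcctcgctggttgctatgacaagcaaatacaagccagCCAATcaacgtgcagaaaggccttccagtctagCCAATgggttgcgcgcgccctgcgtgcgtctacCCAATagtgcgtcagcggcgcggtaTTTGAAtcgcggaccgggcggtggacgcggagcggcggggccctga
Cdc20: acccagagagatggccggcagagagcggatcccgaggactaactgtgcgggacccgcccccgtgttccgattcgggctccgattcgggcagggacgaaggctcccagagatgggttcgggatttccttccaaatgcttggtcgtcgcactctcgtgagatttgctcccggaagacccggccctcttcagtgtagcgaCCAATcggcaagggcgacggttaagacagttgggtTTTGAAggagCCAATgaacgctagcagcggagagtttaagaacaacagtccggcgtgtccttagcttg
Mki67: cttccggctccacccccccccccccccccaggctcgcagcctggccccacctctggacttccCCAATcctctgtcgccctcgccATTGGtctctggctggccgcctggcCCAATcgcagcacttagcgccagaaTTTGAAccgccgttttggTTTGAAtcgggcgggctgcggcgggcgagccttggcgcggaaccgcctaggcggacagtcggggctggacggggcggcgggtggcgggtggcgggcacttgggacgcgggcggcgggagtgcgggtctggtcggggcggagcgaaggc
Cdc6: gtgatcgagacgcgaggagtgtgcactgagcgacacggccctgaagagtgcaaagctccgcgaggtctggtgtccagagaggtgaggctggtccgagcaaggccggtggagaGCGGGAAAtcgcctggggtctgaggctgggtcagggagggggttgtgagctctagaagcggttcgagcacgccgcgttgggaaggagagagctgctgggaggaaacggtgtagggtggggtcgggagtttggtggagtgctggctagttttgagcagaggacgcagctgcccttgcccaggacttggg
Melk: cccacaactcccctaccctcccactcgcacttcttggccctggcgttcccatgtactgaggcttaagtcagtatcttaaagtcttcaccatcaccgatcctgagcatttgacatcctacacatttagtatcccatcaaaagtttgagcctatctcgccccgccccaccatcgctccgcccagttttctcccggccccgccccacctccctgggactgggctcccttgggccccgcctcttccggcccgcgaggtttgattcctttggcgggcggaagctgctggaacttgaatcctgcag

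Positions count the base after the 250 upstream bases as 1 and the base before it as -1, without a 0. Ccnb2 had CHR matches at -167 and 5 and CCAAT matches at -87, -54 and -21. Cdc20 had a CHR match at -18, between CCAAT matches at -53 and -8. Mki67 had CHR matches at -116 and -98 and 3 CCAAT matches farther upstream, and Cdc6 had 1 E2F match at -138 and no CHR or CCAAT match. The windows of Melk and Nusap1, both mitotic genes, held none of the 3 motifs.

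**Figure D1:**
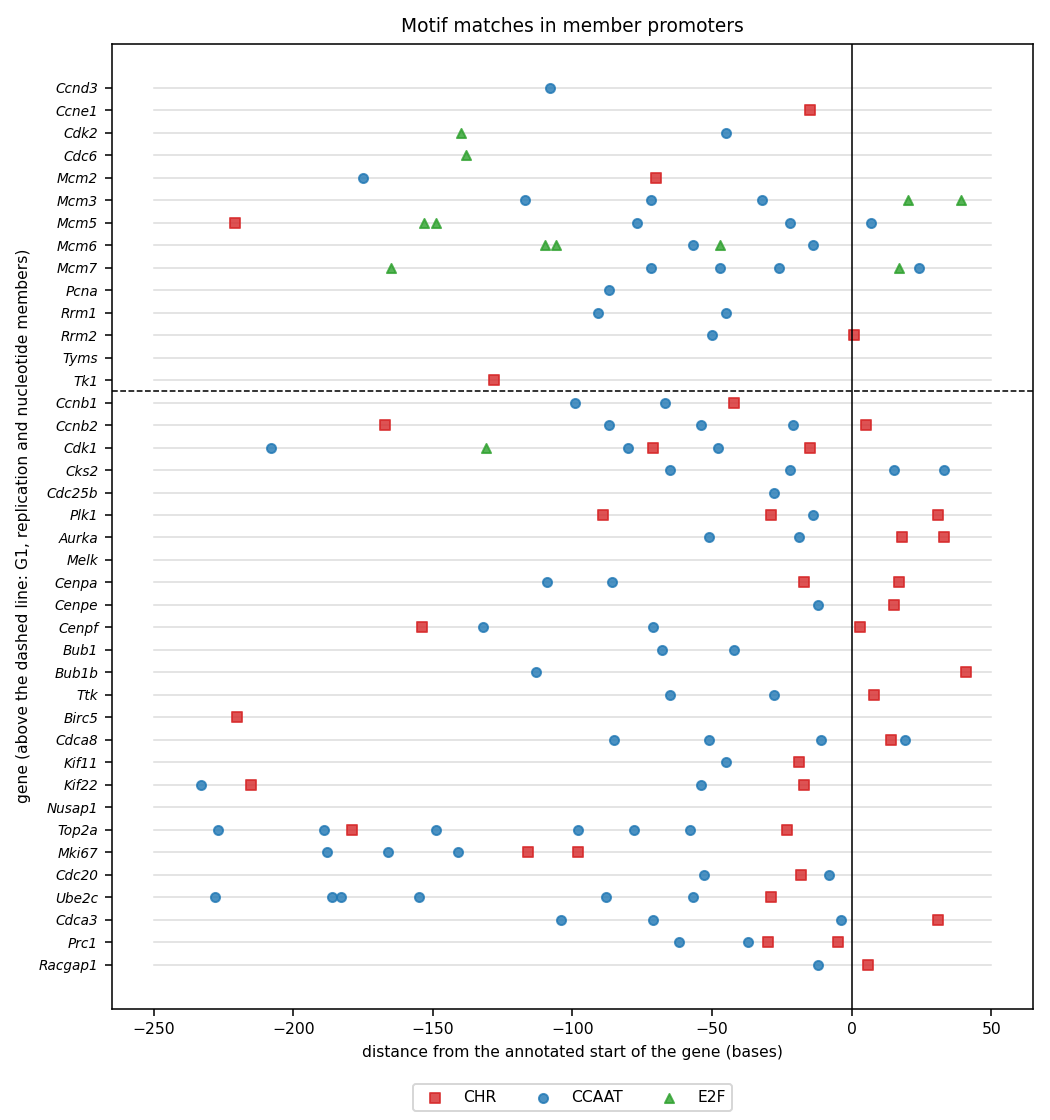
Motif matches in the promoters of 40 cell cycle genes, by position in bases from the annotated start on the horizontal axis. The upright line is at 0, a number that no base carries. Squares mark CHR, circles CCAAT and triangles E2F, and genes with 2 promoters are drawn on 1 line. CHR matches gather near the start of the mitotic genes under the dashed line, and E2F matches are mostly above it, among replication genes.

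Most of the tested genes were higher in KI Tregs than KI Tconv, and 4 were higher in KI than in WT Tregs. All tests were limma fits over the 8139 genes, with p-values adjusted by the Benjamini-Hochberg method and called under 0.05. Between WT Tregs and WT Tconv, 10 of the 36 tested genes were higher and 2 lower, while 16.7% of all genes tested were higher and 17.9% lower. Between KI Tregs and KI Tconv, 27 were higher and 2 lower, against 21.2% and 19.9% of all genes. The median difference was 0.40 in WT and 1.09 in KI, against -0.03 and -0.02 for all genes tested. Higher in both were 9 genes, which were Mcm6, Rrm2, Tyms, Tk1, Cks2, Melk, Cenpa, Mki67 and Prc1. Between KI and WT Tregs, 4 genes rose and none fell (1 was lower at an unadjusted p under 0.05), against 1.99% and 0.848% of all genes, and the median was 0.71 against 0.04. Between KI and WT Tconv none passed (1 gene, Mcm3, had an unadjusted p under 0.05, and 0.135% of all genes passed) and the median was -0.04. A filter that asks for a log2 value above 5 on 4 arrays lets a gene in through the group where it is high, so the counts over 36 leave out low genes. Cdc6, Tk1, Cenpf and Kif20a passed it on exactly 4 arrays, which for Cdc6 were the 4 KI Tregs. None of these 4, nor Melk or Prc1, was above 5 on a Tconv array, so these genes passed the filter only through Tregs. Without the filter all 47 genes were tested among 17097. Then 9 were higher in WT Tregs than WT Tconv (8.57% of all genes), 36 in KI Tregs than KI Tconv (11.6%) and 6 in KI than in WT Tregs (1.05%).

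**Figure D2:**
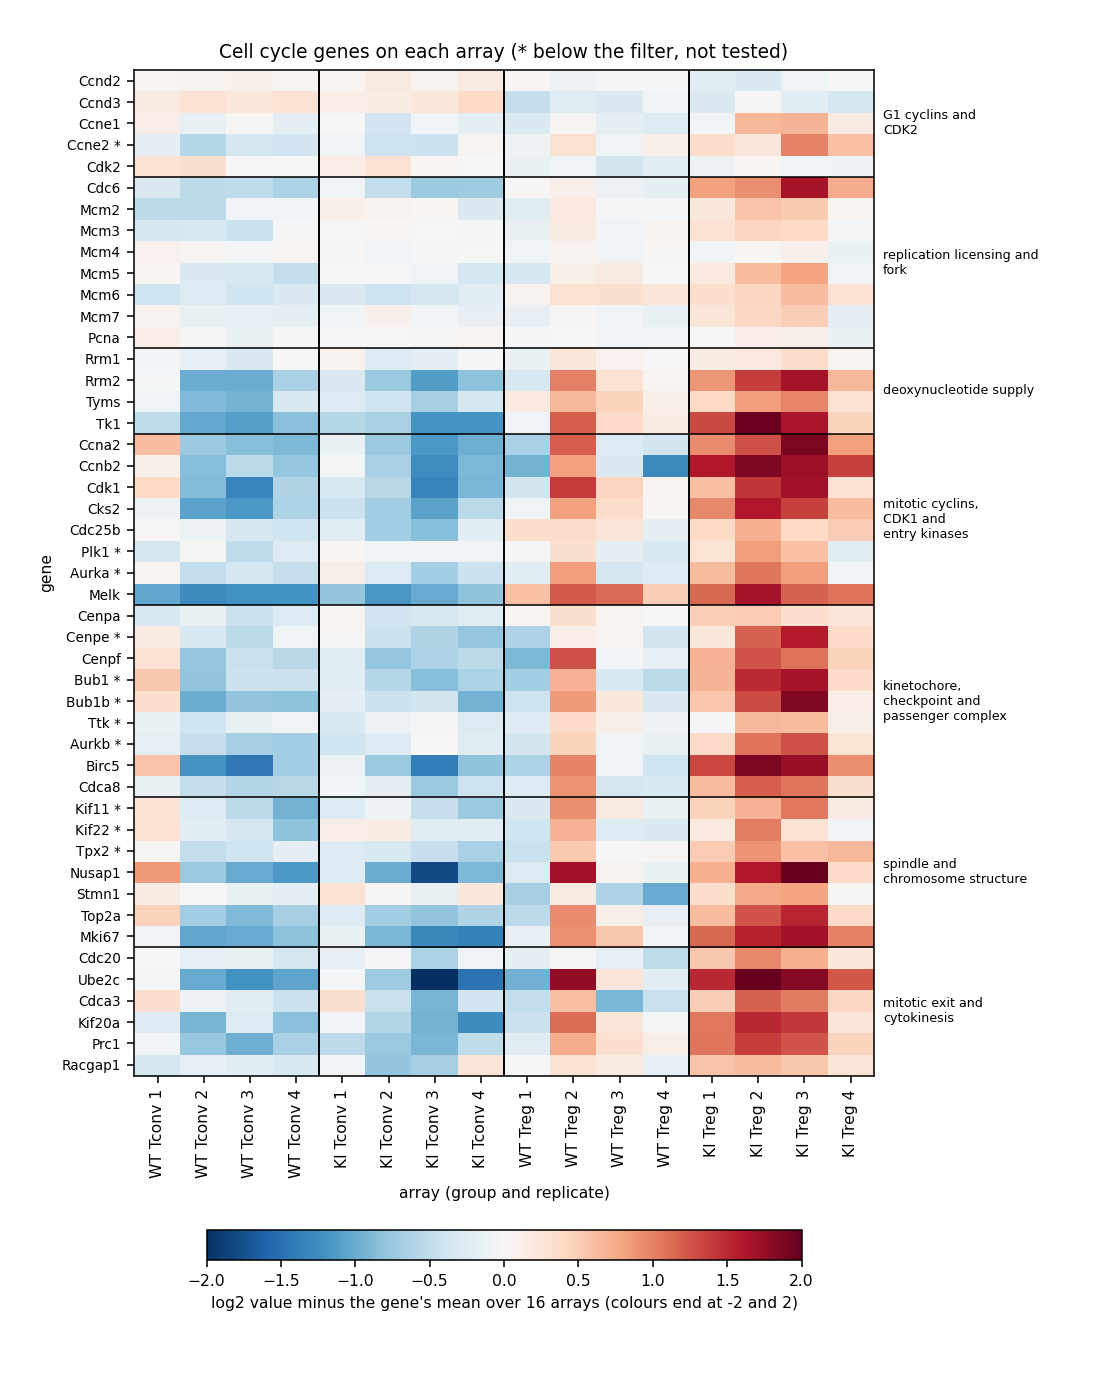
Level of 47 cell cycle genes (rows, by role) on each of the 16 arrays (columns, by group), as the log2 value minus the gene's mean over the 16 arrays, from blue (lower) to red (higher), with an asterisk for genes under the filter. The 4 KI Tregs are red for most mitotic and nucleotide genes, WT Treg 2 stands out among the WT Tregs, and the D-type cyclins run the other way.

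The G1 genes went both ways. Of 4 tested genes of G1, 2 were lower in WT Tregs than WT Tconv and in KI mice 2 were lower and 1 higher. Over all genes tested, 17.9% were lower in WT, and 19.9% were lower and 21.2% higher in KI. Cyclin D3, with which resting lymphocytes respond to growth signals, fell in Tregs of both genotypes. Ccnd3 read 9.61, 9.72, 9.65 and 9.72 in WT Tconv, 9.57, 9.58, 9.64 and 9.84 in KI Tconv, 8.96, 9.23, 9.15 and 9.38 in WT Tregs and 9.14, 9.46, 9.22 and 9.08 in KI Tregs. Here and below the 4 values of a group are log2 values of replicates 1 to 4. Every Treg array lay below every Tconv array, with a difference of -0.49 (SE 0.0927, 1.41-fold lower, adjusted p = 0.000395) in WT and -0.43 (SE 0.0927, adjusted p = 0.00106) in KI. A second probe set of Ccnd3 gave -0.02 in WT and -0.43 in KI, so its call in WT rests on 1 of 2 probe sets. Ccnd2 read 11.79, 11.80, 11.83 and 11.79 in WT Tconv, 11.77, 11.92, 11.81 and 11.91 in KI Tconv, 11.78, 11.64, 11.69 and 11.71 in WT Tregs and 11.51, 11.44, 11.65 and 11.72 in KI Tregs. Cyclin D2, the other D-type cyclin of the set, fell in KI Tregs against KI Tconv (-0.27, SE 0.0566, adjusted p = 0.000878), without overlap, and -0.10 (adjusted p = 0.202) in WT. The 6 probe sets of Ccnd2 gave -0.20 to 0.43 in WT and -0.38 to 0.09 in KI, so its direction depends on the probe set.

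Cyclin E1, the partner of CDK2 at the start of S phase, was higher in KI Tregs than KI Tconv, by 0.51 (SE 0.161, adjusted p = 0.0167), though the groups overlapped. Ccne1 read 5.40, 5.12, 5.29 and 5.09 in WT Tconv, 5.27, 4.88, 5.21 and 5.07 in KI Tconv, 4.97, 5.32, 5.09 and 5.01 in WT Tregs and 5.20, 5.92, 5.94 and 5.42 in KI Tregs. KI Tregs 2 and 3 were the high arrays and KI Treg 1 lay within the range of KI Tconv. The call was lost without KI Treg 2 (adjusted p = 0.0592), KI Treg 3 (adjusted p = 0.0618) or KI Tconv 2 (adjusted p = 0.0577). CDK2 itself went the other way in WT. Cdk2 read 8.23, 8.26, 7.95 and 7.93 in WT Tconv, 8.08, 8.23, 7.98 and 7.95 in KI Tconv, 7.81, 7.86, 7.58 and 7.73 in WT Tregs and 7.83, 7.98, 7.88 and 7.84 in KI Tregs. WT Tregs lay below WT Tconv without overlap (-0.35, SE 0.0920, adjusted p = 0.00637), and in KI the difference was -0.18 (adjusted p = 0.128).

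Of 8 replication genes tested, 2 (25%) were higher in WT Tregs and 3 (37.5%) in KI Tregs than in Tconv, against 16.7% and 21.2% of all genes. The median difference was 0.26 and 0.33. Mcm6, a subunit of the helicase ring, was higher in both, by 0.57 (SE 0.0765, adjusted p = 1.09e-05) and 0.73 (adjusted p = 3.5e-07), and Mcm3 in WT (0.29, adjusted p = 0.0469), where a second probe set gave 0.11 and the call was lost in 11 of the 16 fits without 1 array (adjusted p up to 0.144 without WT Treg 2). The other ring subunits Mcm2, Mcm4 and Mcm7 passed in neither. Mcm5 read 6.71, 6.38, 6.37 and 6.20 in WT Tconv, 6.66, 6.66, 6.61 and 6.32 in KI Tconv, 6.33, 6.79, 6.85 and 6.68 in WT Tregs and 6.87, 7.30, 7.47 and 6.60 in KI Tregs. Mcm5, of the same ring, was higher in KI Tregs than KI Tconv by 0.50 (SE 0.170, adjusted p = 0.0263), while KI Treg 4 lay inside the Tconv range. It did not pass without KI Treg 2 (adjusted p = 0.0799), KI Treg 3 (adjusted p = 0.1) or KI Tconv 4 (adjusted p = 0.0775). Pcna read 11.82, 11.67, 11.56 and 11.71 in WT Tconv, 11.68, 11.69, 11.65 and 11.74 in KI Tconv, 11.66, 11.70, 11.64 and 11.64 in WT Tregs and 11.68, 11.82, 11.81 and 11.55 in KI Tregs. The sliding clamp gene Pcna spanned a narrow range on all arrays, and its differences were -0.03 (95% interval -0.15 to 0.09) in WT and 0.03 (-0.10 to 0.15) in KI. Cdc6 read 4.24, 4.00, 4.02 and 3.89 in WT Tconv, 4.44, 4.04, 3.79 and 3.81 in KI Tconv, 4.55, 4.63, 4.40 and 4.35 in WT Tregs and 5.34, 5.46, 6.18 and 5.26 in KI Tregs. Cdc6, the loader of the helicase, was above 5 on the 4 KI Treg arrays and on no other. It was higher in KI Tregs than KI Tconv by 1.54 (SE 0.194, 2.92-fold, adjusted p = 3.76e-06) and 0.45 higher in WT (adjusted p = 0.0853), where the groups did not overlap. It rose by 1.08 from WT to KI Tregs (SE 0.194, 2.11-fold, adjusted p = 0.00502), and by the same 1.08 (adjusted p = 0.00269) in the fit without the filter.

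Genes for deoxynucleotide supply were raised in Tregs of both genotypes. Called higher were 3 of 4 in WT and 4 of 4 in KI, against 16.7% and 21.2% of all genes. Tk1 read 3.85, 3.34, 3.26 and 3.53 in WT Tconv, 3.79, 3.71, 3.18 and 3.18 in KI Tconv, 4.31, 5.58, 4.74 and 4.51 in WT Tregs and 5.69, 6.33, 6.00 and 4.80 in KI Tregs. Thymidine kinase 1, which salvages thymidine in dividing cells, was among the 3 greatest differences in WT, at 1.29 (SE 0.303, 2.45-fold, adjusted p = 0.00269), and reached 2.24 (SE 0.303, adjusted p = 8.88e-06) in KI. Its Treg arrays did not overlap with Tconv in either genotype. Rrm2 read 6.84, 5.89, 5.88 and 6.23 in WT Tconv, 6.58, 6.13, 5.76 and 6.06 in KI Tconv, 6.55, 7.89, 7.16 and 6.93 in WT Tregs and 7.76, 8.25, 8.54 and 7.54 in KI Tregs. Rrm2, the subunit of ribonucleotide reductase that cells make for S phase, was 0.92 higher in WT Tregs (SE 0.275, adjusted p = 0.0141; 0.67 and adjusted p = 0.0609 without WT Treg 2), with overlap, and 1.89 higher in KI Tregs (SE 0.275, 3.71-fold, adjusted p = 2.14e-05), without. Tyms read 6.40, 5.60, 5.55 and 6.19 in WT Tconv, 6.21, 6.09, 5.82 and 6.14 in KI Tconv, 6.68, 7.16, 6.93 and 6.61 in WT Tregs and 6.89, 7.33, 7.46 and 6.78 in KI Tregs. Thymidylate synthase was higher by 0.91 in WT (SE 0.192, adjusted p = 0.00118) and 1.05 in KI (SE 0.192, adjusted p = 0.000246), again with no overlap. The larger and more steadily made subunit Rrm1 was 0.30 higher in KI (adjusted p = 0.0247), a call lost without KI Treg 3, KI Tconv 2 or KI Tconv 3 (adjusted p = 0.0818, 0.0852 and 0.0708). None of the 4 passed between KI and WT Tregs, where Tyms differed by 0.27 (95% interval -0.14 to 0.67) and Rrm2 by 0.89 (0.31 to 1.47).

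**Figure D3:**
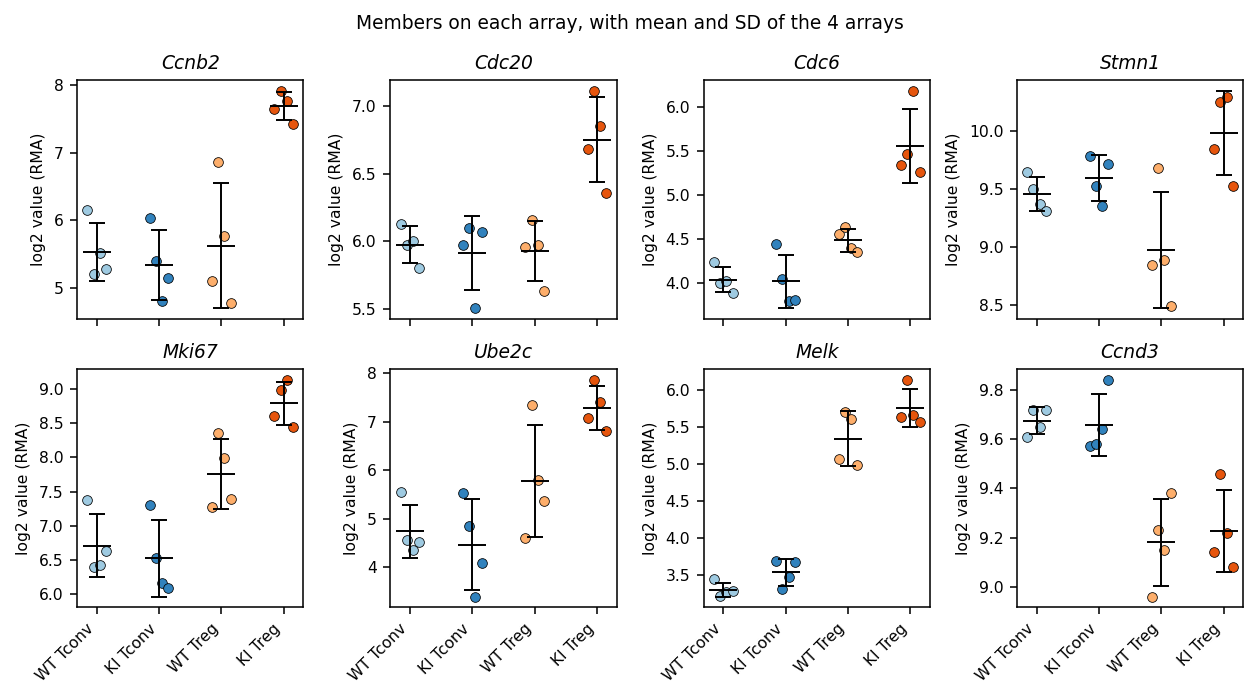
Log2 values of 8 cell cycle genes on each array, by group, with long bars for the mean and whiskers for the SD of the 4 arrays, each panel with its own vertical axis. Ccnb2, Cdc20 and Cdc6 stood higher in KI Tregs than in the other groups without overlap, Melk stood higher in Tregs of both genotypes, and Ccnd3 stood lower in them.

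The mitotic cyclins and kinases held the largest difference between KI and WT Tregs, that of Ccnb2. All 6 tested genes of this role were higher in KI Tregs than KI Tconv (median 1.90) and 2 were in WT (median 0.71). The shares over all genes were 21.2% and 16.7%. Ccnb2 read 6.15, 5.20, 5.51 and 5.28 in WT Tconv, 6.03, 5.39, 4.80 and 5.15 in KI Tconv, 5.10, 6.86, 5.76 and 4.78 in WT Tregs and 7.64, 7.91, 7.76 and 7.42 in KI Tregs. Cyclin B2, a partner of CDK1 whose promoter is printed above, was at 7.42 or more on the 4 KI Tregs and at 6.86 or less on all other arrays. WT Tregs did not differ from WT Tconv beyond their spread (0.09, 95% interval -0.64 to 0.81, adjusted p = 0.878), and their SD was 0.92 against 0.21 in KI Tregs. KI Tregs were 2.34 above KI Tconv (SE 0.346, 5.05-fold, adjusted p = 2.57e-05) and 2.06 above WT Tregs (SE 0.346, 4.16-fold, adjusted p = 0.00273), the largest of the 36 differences between KI and WT Tregs. Ccna2 read 6.13, 4.78, 4.66 and 4.62 in WT Tconv, 5.38, 4.77, 4.36 and 4.54 in KI Tconv, 4.86, 6.72, 5.23 and 5.15 in WT Tregs and 6.45, 6.80, 7.40 and 6.33 in KI Tregs. Cyclin A2, which serves both S phase and mitosis, was 1.98 higher in KI Tregs than KI Tconv (SE 0.385, adjusted p = 0.000441) and 0.45 in WT (adjusted p = 0.402), where WT Tconv 1 and WT Treg 2 were the high arrays. KI Tregs stood 1.25 above WT Tregs (SE 0.385, adjusted p = 0.0962) without passing, with WT Treg 2 inside the KI range.

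Cdk1 read 6.05, 4.78, 4.32 and 5.05 in WT Tconv, 5.34, 5.10, 4.31 and 4.73 in KI Tconv, 5.28, 7.04, 6.07 and 5.70 in WT Tregs and 6.25, 7.07, 7.32 and 5.95 in KI Tregs. The mitotic kinase gene Cdk1 was 1.78 higher in KI Tregs than KI Tconv (SE 0.393, adjusted p = 0.0014) and 0.97 in WT (SE 0.393, adjusted p = 0.0647). WT Treg 2 lay above KI Treg 1 and KI Treg 4, and KI and WT Tregs differed by 0.63 (95% interval -0.20 to 1.45). Cks2, a small subunit that binds CDK1, was higher in both genotypes, by 1.03 (adjusted p = 0.003) and 1.82 (adjusted p = 8.66e-06). Cdc25b, the phosphatase that activates CDK1, was 0.99 higher in KI (adjusted p = 4.12e-05) and 0.40 in WT (adjusted p = 0.0527). Melk read 3.44, 3.22, 3.27 and 3.28 in WT Tconv, 3.69, 3.31, 3.47 and 3.67 in KI Tconv, 5.06, 5.70, 5.61 and 4.98 in WT Tregs and 5.63, 6.13, 5.66 and 5.57 in KI Tregs. Melk, a kinase made in mitosis, had the largest difference of all 36 genes in WT, 2.03 (SE 0.181, 4.09-fold, adjusted p = 5.95e-08), and nearly the same in KI, 2.22 (SE 0.181, adjusted p = 1.36e-08). All 8 Treg arrays lay above all 8 Tconv arrays. Melk was above 5 on no Tconv array and so passed the filter only through Tregs. The limma fit without the filter gave 2.03 in WT (adjusted p = 1.01e-08). KI and WT Tregs differed in Melk by 0.41 (95% interval 0.03 to 0.80, adjusted p = 0.258).

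Of 9 genes of the kinetochore, the checkpoint and the chromosomal passenger complex, 4 passed the filter. All 4 were higher in KI Tregs than KI Tconv, against 21.2% of all genes. Cenpa, the histone of the centromere, was also higher in WT (0.39, adjusted p = 0.00555), where 16.7% of all genes were. A second probe set of Cenpa gave 0.12 in WT and -0.01 in KI, so both calls rest on 1 of 2 probe sets. Birc5 read 6.27, 4.52, 4.26 and 5.00 in WT Tconv, 5.59, 4.96, 4.31 and 4.89 in KI Tconv, 5.06, 6.69, 5.63 and 5.30 in WT Tregs and 7.04, 7.58, 7.44 and 6.62 in KI Tregs. Birc5, or survivin, which anchors the passenger complex, was 2.23 higher in KI Tregs than KI Tconv (SE 0.398, 4.70-fold, adjusted p = 0.00019), without overlap. In WT the difference was 0.66 (SE 0.398, adjusted p = 0.219), with WT Tconv 1 above 3 of the 4 WT Tregs. KI and WT Tregs differed by 1.50 (SE 0.398, 2.83-fold, adjusted p = 0.0506), and KI Treg 4 lay just under WT Treg 2. Cdca8, or borealin, of the same complex was 1.16 higher in KI (adjusted p = 0.00124), and the kinetochore protein gene Cenpf 1.40 (adjusted p = 0.0031).

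The spindle and chromosome genes held Mki67, which was higher in Tregs of both genotypes, and stathmin, which was not. Mki67 read 7.38, 6.40, 6.43 and 6.63 in WT Tconv, 7.31, 6.53, 6.16 and 6.10 in KI Tconv, 7.28, 8.36, 7.99 and 7.39 in WT Tregs and 8.60, 8.98, 9.13 and 8.45 in KI Tregs. Mki67, which coats mitotic chromosomes, was higher in Tregs by 1.05 in WT (SE 0.281, 2.06-fold, adjusted p = 0.00716) and 2.27 in KI (SE 0.281, 4.81-fold, adjusted p = 3.12e-06). The 4 KI Tregs lay above the 4 WT Tregs, by 1.03 on average (SE 0.281), and did not pass (adjusted p = 0.058). Top2a read 7.43, 6.27, 6.08 and 6.31 in WT Tconv, 6.71, 6.27, 6.18 and 6.37 in KI Tconv, 6.44, 7.92, 7.09 and 6.80 in WT Tregs and 7.59, 8.23, 8.49 and 7.35 in KI Tregs. Topoisomerase 2 alpha, which untangles chromosomes, was 1.53 higher in KI (SE 0.314, adjusted p = 0.000735) and 0.54 in WT (adjusted p = 0.202), and WT Tconv 1 exceeded 3 of the WT Tregs. Nusap1, which bundles spindle microtubules, was 2.17 higher in KI (adjusted p = 0.00153). Stmn1 read 9.65, 9.50, 9.37 and 9.31 in WT Tconv, 9.79, 9.53, 9.35 and 9.72 in KI Tconv, 8.84, 9.68, 8.89 and 8.49 in WT Tregs and 9.85, 10.26, 10.30 and 9.53 in KI Tregs. Stathmin, which takes microtubules apart, was lowest in WT Tregs 1, 3 and 4, while WT Treg 2 lay inside the KI range. It was 1.01 higher in KI than in WT Tregs (SE 0.200, 2.01-fold, adjusted p = 0.00946). Its differences from Tconv had opposite signs and did not pass, -0.48 (adjusted p = 0.071) in WT and 0.39 (adjusted p = 0.134) in KI. A second probe set of Stmn1 gave 1.02 between KI and WT Tregs.

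All 6 genes of mitotic exit and cytokinesis were higher in KI Tregs than KI Tconv, against 21.2% of all genes. In WT 1 was, the midzone protein gene Prc1 (0.86, adjusted p = 0.00765), against 16.7% of all genes. Cdc20 read 6.13, 5.97, 6.00 and 5.80 in WT Tconv, 5.97, 6.10, 5.51 and 6.07 in KI Tconv, 5.96, 6.16, 5.97 and 5.63 in WT Tregs and 6.68, 7.11, 6.85 and 6.36 in KI Tregs. Cdc20, the activator of the APC/C, was at 6.36 or more on the 4 KI Tregs and at 6.16 or less on all other arrays. It did not differ between WT Tregs and WT Tconv beyond the spread (-0.05, 95% interval -0.39 to 0.29) and was 0.84 higher in KI Tregs than KI Tconv (SE 0.161, adjusted p = 0.000407). It rose by 0.82 between KI and WT Tregs (SE 0.161, 1.77-fold, adjusted p = 0.00853). Ube2c read 5.55, 4.56, 4.36 and 4.52 in WT Tconv, 5.54, 4.86, 3.40 and 4.09 in KI Tconv, 4.61, 7.34, 5.81 and 5.36 in WT Tregs and 7.08, 7.86, 7.40 and 6.81 in KI Tregs. Ube2c, the enzyme that feeds ubiquitin to the APC/C, had the largest difference of the 36 between KI Tregs and KI Tconv, 2.82 (SE 0.486, 7.04-fold, adjusted p = 0.000138). In WT it was 1.03 (SE 0.486, adjusted p = 0.111). WT Tregs ran from 4.61 to 7.34, and WT Treg 2 lay above KI Treg 1 and KI Treg 4. KI and WT Tregs differed by 1.51 (SE 0.486, adjusted p = 0.113). The other members of this role, Cdca3, Kif20a, Prc1 and Racgap1, were 0.81 to 1.76 higher in KI Tregs than KI Tconv.

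**Figure D4:**
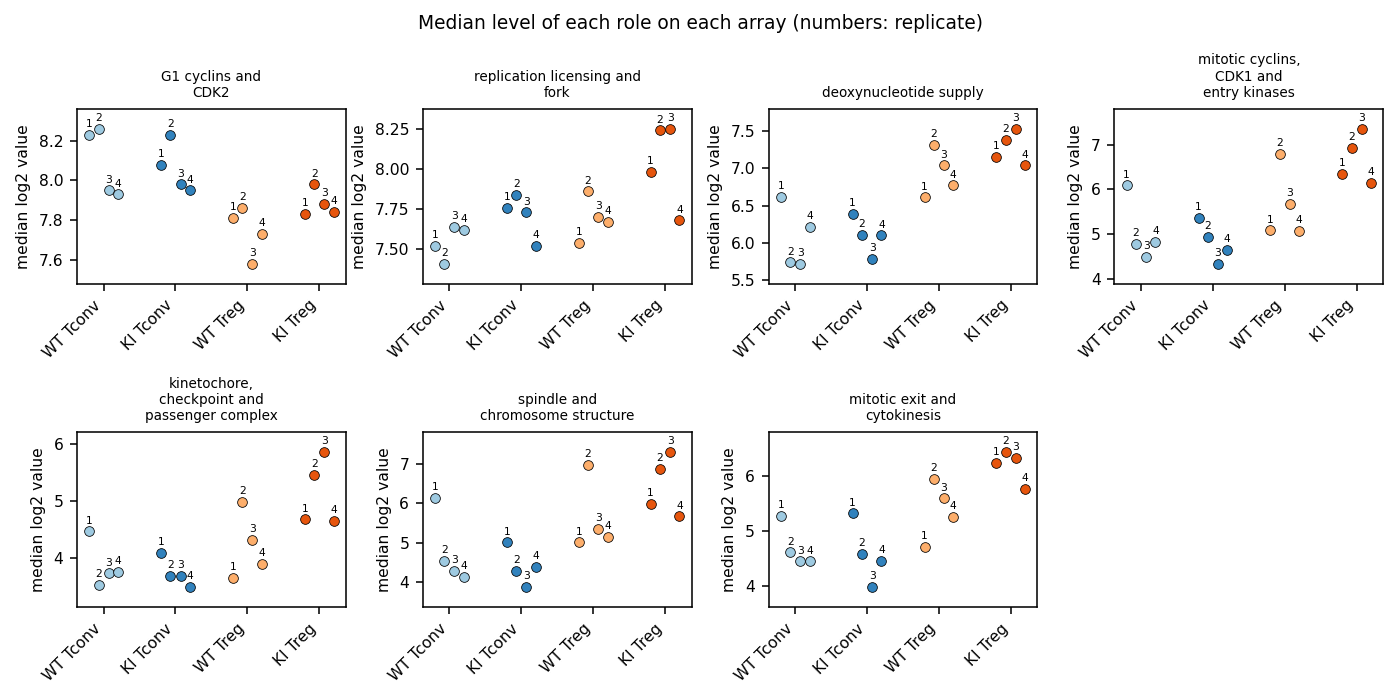
Median log2 value over the genes of each role on each array, by group, with the replicate number over each point and each panel with its own vertical axis. From replication onward KI Treg 2 or KI Treg 3 has the highest median of each role, and WT Treg 2 lies within or near the KI range. For the G1 genes the median is the value of Cdk2 on every array. There each Treg array except KI Treg 2 lies below all Tconv arrays.

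Cyclin B2, Cdc6, stathmin and Cdc20 were thus the 4 genes that rose between KI and WT Tregs, and 34 of the 36 differences were positive, as were 4906 of all 8139. Without overlap between the groups were 5 genes, Ccnb2, Cdc6, Cdc20, Mki67 and Cdc25b, while 5.12% of all genes were higher without overlap. Next in order of adjusted p were Birc5, Mki67 and Cdca3, the last with a difference of 1.10 (adjusted p = 0.0584). All 4 that rose passed in each of the 16 fits that left out 1 array, with differences of 1.78 to 2.47 for Ccnb2, 0.87 to 1.18 for Cdc6, 0.85 to 1.24 for Stmn1 and 0.70 to 0.95 for Cdc20. The count of 4 was less steady. It became 16 without WT Treg 2 and 16 without KI Treg 4, and 7 without WT Tconv 1 or without KI Tconv 1. The numbers in the sample titles follow genotype in part, with 4 to 9 on WT, 13 to 23 on KI and 24 to 27 on 1 array of each group, and the labels do not say what they mean. With these 3 ranges as a block none of the 36 passed (9 had an unadjusted p under 0.05), as against 29 of all 8139 genes, and the differences were 2.38 for Ccnb2 (SE 0.501, adjusted p = 0.0542), 1.16 for Stmn1 (adjusted p = 0.107), 0.94 for Cdc20 (adjusted p = 0.117) and 0.97 for Cdc6 (adjusted p = 0.234). Between the KI Treg and the WT Treg array numbered 24 to 27 the differences were 2.64, 1.04, 0.73 and 0.92 in the same order. Since the ranges 4 to 9 and 13 to 23 each hold 1 genotype, the fit with the block compares genotypes only through arrays 24 to 27. Its SEs were larger, for Cdc6 0.293 against 0.194. The part of the ranges in the differences was not tested.

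The interaction asks whether KI and WT cells differ more in Tregs than in Tconv, and it passed for 1 gene, Ccnb2, at 2.25 (SE 0.489, adjusted p = 0.036), against 0.663% of all genes in the higher direction. For the other genes that rose between KI and WT Tregs it was 1.10 for Cdc6 (adjusted p = 0.0897), 0.88 for Cdc20 (adjusted p = 0.104) and 0.87 for Stmn1 (adjusted p = 0.273), so a difference from Tconv was not shown for them. The interaction of Ccnb2 lay between 1.97 and 2.66 when each array was left out in turn, and passed in 5 of these 16 fits (adjusted p = 0.00305 to 0.0995). Genes that passed numbered 3 without WT Treg 2, 2 without KI Tconv 1 or without KI Treg 4, and 0 without any one of WT Treg 1, WT Treg 3, WT Treg 4, WT Tconv 1, WT Tconv 3, WT Tconv 4, KI Treg 1, KI Treg 2, KI Treg 3, KI Tconv 2 and KI Tconv 3. Of the 36 genes, 34 had a positive interaction (4562 of the 8139 genes did), Mcm3 and Ccnd2 being the others. The sign was counted here, so genes whose Treg minus Tconv difference was less negative in KI than in WT, such as Ccnd3, are among the 34. KI and WT Tconv themselves differed by -0.48 to 0.29 over the 36 genes. Ccnb2 differed there by -0.19 (95% interval -0.92 to 0.53) and Cdc6 by -0.02 (-0.43 to 0.39).

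**Figure D5:**
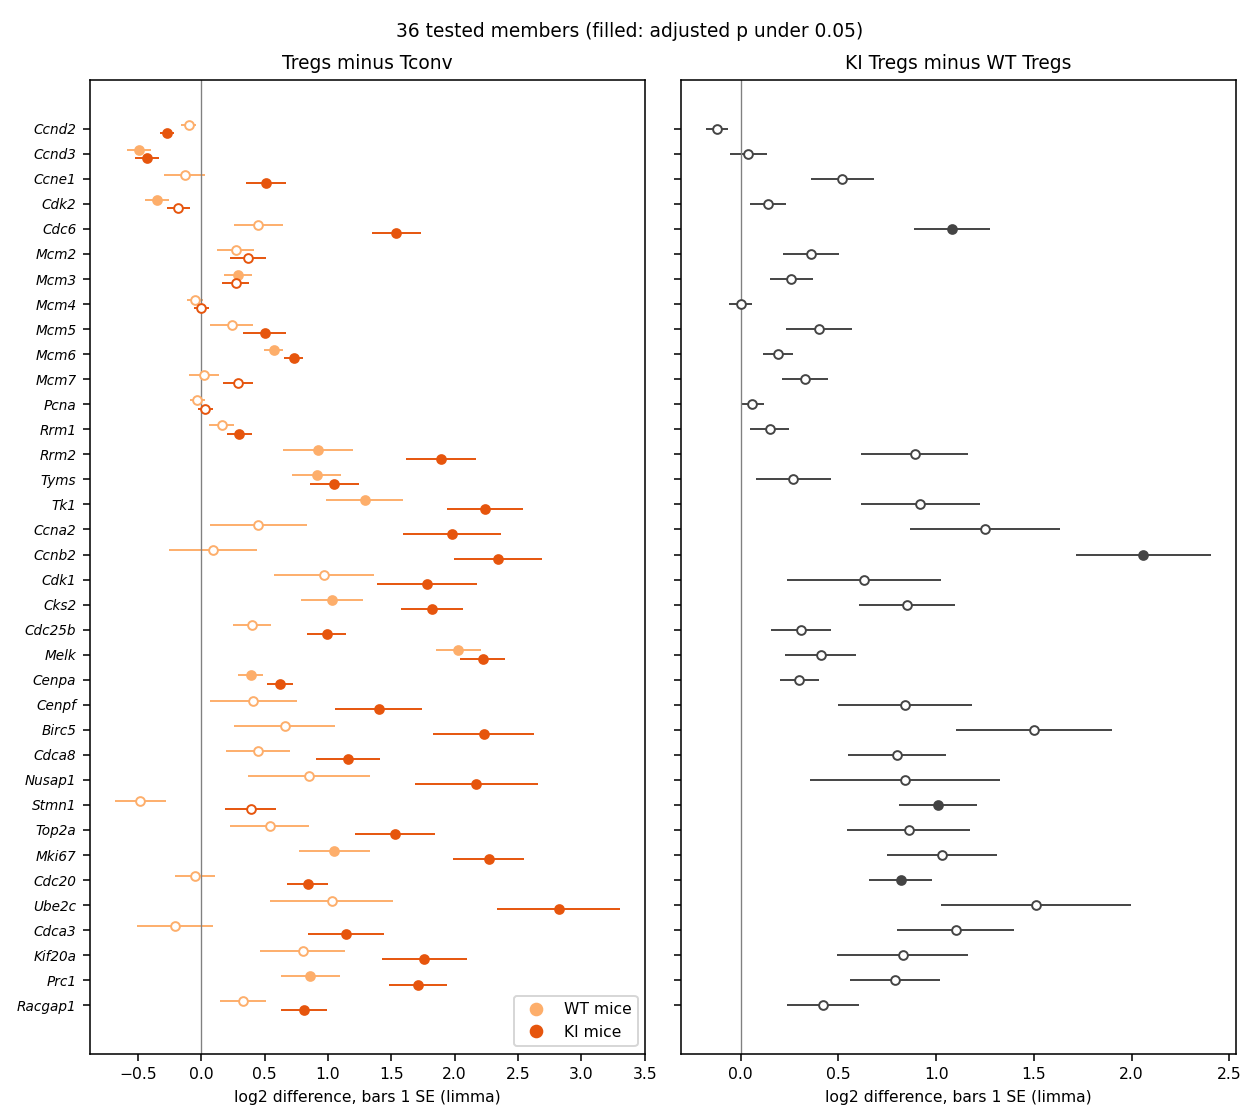
Log2 differences of the 36 tested genes with bars of 1 SE from limma, on the left between Tregs and Tconv in WT (light) and KI (dark) mice and on the right between KI and WT Tregs, filled where the adjusted p was under 0.05. Most genes lie farther right in KI than in WT, and 4 filled points stand on the right, of which Ccnb2 is the farthest.

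The 11 genes under the filter were Ccne2, Plk1, Aurka, Aurkb, Bub1, Bub1b, Ttk, Cenpe, Kif11, Kif22 and Tpx2. Of these, Plk1, Ttk, Aurkb, Tpx2 and Ccne2 were above 5 on no array. In the fit without the filter, 9 of the 11 were higher in KI Tregs than KI Tconv, against 11.6% of all genes. None was higher in WT Tregs than WT Tconv (2 at an unadjusted p under 0.05), against 8.57% of all genes. The greatest difference between KI Tregs and KI Tconv was that of the checkpoint kinase gene Bub1, which was 1.61 higher (SE 0.310, adjusted p = 0.000549). Plk1, the polo-like kinase of mitotic entry, and the chromosome motor gene Kif22 differed by 0.41 (adjusted p = 0.123) and 0.40 (adjusted p = 0.308). Bub1 was also 1.26 higher in KI than in WT Tregs (adjusted p = 0.0459), and the kinetochore motor gene Cenpe 1.04 (adjusted p = 0.0475). Bub1 read 3.11, 4.49, 3.49 and 3.26 in WT Tregs and 4.48, 5.28, 5.44 and 4.18 in KI Tregs. The 2 KI Treg arrays above 5 were KI Tregs 2 and 3, and WT Treg 2 lay above KI Treg 1 and KI Treg 4, so the groups overlapped.

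The rest of the pathway was read from 142 further genes, of which 92 were tested. Of these, 18 (19.6%) were higher in WT Tregs than WT Tconv and 11 (12%) lower, near the 16.7% and 17.9% of all genes. In KI, 41 (44.6%) were higher and 13 (14.1%) lower, against 21.2% and 19.9%, and the median differences were 0.07 in WT and 0.25 in KI. Of the retinoblastoma family, which holds the cell in G1, Rb1 and Rbl2 were higher in Tregs of both genotypes, with Rb1 at 0.72 (adjusted p = 5.38e-08) in WT and 0.78 (adjusted p = 1.3e-08) in KI, and Rbl2, the pocket protein of DREAM, at 0.53 (adjusted p = 4.52e-06) and 0.75 (adjusted p = 4.05e-08). The third member, Rbl1, passed in neither, with differences of 0.02 in WT and -0.18 in KI (adjusted p = 0.0662). E2f2, an activator of S phase genes, was higher by 0.88 and 0.98, and Cdk6, the kinase of the D-type cyclins, by 0.84 and 0.80. Of the CDK4 and CDK6 inhibitors, Cdkn2c was higher by 0.87 (adjusted p = 0.00224) in WT and 1.56 (adjusted p = 4.78e-06) in KI, and Cdkn2d was lower, at -0.50 and -0.36. Of 31 further replication genes, 19.4% were higher and 19.4% lower in WT, near the shares over all genes, and 45.2% were higher and 19.4% lower in KI. The origin kinase gene Cdc7 was lower in both at -0.86, and the licensing factor gene Cdt1 at -0.38 and -0.41. Among other mitosis genes the condensin subunits Smc4 (0.66 and 0.72) and Ncapg (1.20 and 2.50) and the securin gene Pttg1 (0.62 and 1.26) were higher in both. Of 12 APC/C genes none were higher and 2 (16.7%) lower in WT, the latter near the 17.9% of all genes. Anapc5 had the lowest p of these (-0.39, adjusted p = 1.31e-05). In KI 2 of the 12 (16.7%) were higher and 3 (25%) lower, against 21.2% and 19.9% of all genes. The DNA damage kinase gene Atm was lower in both, at -0.33 and -0.36.

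Between KI and WT Tregs 6 of the 92 (6.52%) rose, against 1.99% of all genes, and none fell (3 were lower at an unadjusted p under 0.05), against 0.848%. With the 3 ranges of title numbers as a block, 0 of the 92 were called by limma (10 were higher at an unadjusted p under 0.05), and over all genes 29 were called against 231 without the block. With 1 array left out the count among the 92 ran from 1 (without WT Treg 1, WT Treg 4 or KI Treg 2) to 19 (without KI Treg 4). E2f8, a repressor made in S phase, was 1.38 higher (SE 0.215, 2.59-fold, adjusted p = 0.00142), at 5.18 to 5.96 in KI Tregs and 3.77 to 4.77 in WT Tregs. Its interaction also passed (1.49, adjusted p = 0.023). E2f8 did not exceed 4.45 in WT Tconv or 4.04 in KI Tconv, so it passed the filter only through the KI Tregs, where it was high. The abscission gene Cep55 was 1.59 higher (SE 0.386, adjusted p = 0.033), with WT Tregs from 5.18 to 7.08 and KI Tregs from 6.88 to 7.73. Ncapg was 1.11 higher (adjusted p = 0.0279), the passenger complex scaffold gene Incenp 0.55 (adjusted p = 0.0215), Uhrf1, which maintains DNA methylation at the fork, 0.73 (adjusted p = 0.0432) and Rpa1, of the single-strand binding protein, 0.27 (adjusted p = 0.0432). Rpa1 was at the same time lower in Tregs than in Tconv, at -0.65 in WT and -0.24 in KI.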

How the data were processed

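RNA of sorted CD4 T cells was hybridised to Affymetrix arrays. The authors deposited 1 log2 value for each probe set and array, made with RMA in Partek 6.5, per the submitters' processing notes. RMA subtracts background, equalises arrays and summarises probes, and its options are not given in the sources used here. Values ran from 1.95 to 13.9, array medians from 3.69 to 3.76 and correlations within groups from 0.976 to 0.996. The number of arrays limits the precision.

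Of 45141 probe sets, 28898 matched 1 gene of the platform annotation, 551 several, 15588 none and 104 were controls. Genes matched by identifier (28689 probe sets) or symbol (152) took current RefSeq symbols, and 57 probe sets kept the array's. Per gene the probe set with the highest mean was used. Genes above a log2 value of 5 on at least 4 arrays were tested.

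Limma 3.58.1 (R 4.3.3) fitted 1 mean per group to the 16 arrays, with a trend in the moderated variance, and the script was tested on simulated data. P-values are two-sided and adjusted over all 8139 genes. Intervals are 95% intervals of limma. Replicates were numbered in accession order. Array values are given for genes that passed between genotypes or in the interaction, the 3 largest passing differences between Tregs and Tconv in each genotype, and a fixed set. The same rule names pathway genes that passed between genotypes, and otherwise up to 4 per list with the lowest p. Alternatives changed the variance model, the filter, the probe set choice, the centring, array weights, title number blocks and the arrays. The genes, lists, tests and alternatives were chosen with earlier results of these data known. Bub1 is printed by array because it passed without the filter, a choice made after its values were seen.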

Additional observations from a re-analysis of the deposited data

Results flagged for a closer look

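In 7 of 144 groups of 4 values tested (36 genes in 4 groups), 1 array stood far from the others by Dixon's test at its 95% critical value, and chance alone marks about 1 group in 20. Ccna2 was at 6.13 on WT Tconv 1, with the next array at 4.78. Top2a was at 7.43 and Ube2c at 5.55 on the same array, with the next at 6.31 and 4.56. Cdca8 was at 6.23 on WT Treg 2, with the next at 5.07, and Melk at 6.13 on KI Treg 2, with the next at 5.66. The helicase genes Mcm2 and Mcm5 were lowest on KI Tconv 4, at 7.11 and 6.32, with the next at 7.44 and 6.61. The KI minus WT difference of Ccnb2 was larger in Tregs than in Tconv by 2.25 (SE 0.489), the interaction with an adjusted p of 0.036 by limma.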

How the results depend on the processing

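No paired analysis was possible because the labels give the groups no shared replicate numbers. Between KI and WT Tregs the count of 4 genes became 20 with array weights (19 higher, Ccnd2 lower; 1715 of all genes passed), 7 with 2 number ranges as a block, 0 with 3 ranges as a block (9 at an unadjusted p under 0.05 by limma) and 8 in the 12 arrays numbered below 24, a setting added after seeing the data. It ran from 4 to 16 when 1 array was left out. The interaction count of 1 became 0 without a variance trend (16 at an unadjusted p under 0.05), 8 with array weights and 3 with 2 ranges as a block, and ran from 0 to 3 with 1 array left out. In the 12 arrays the 1 gene was Cdc20, and Ccnb2 had 2.08 (adjusted p = 0.101). The cause was not tested. Within arrays 24 to 27 Racgap1 differed by -0.01 between KI Tregs and KI Tconv, against 0.81 over all arrays. Counts for Tregs against Tconv were 9 to 17 in WT and 21 to 38 in KI over all settings, and 0 for Tconv in each. Of 41 calls between Tregs and Tconv, 6 were lost in some setting that tested the gene (Mcm3 and Rrm2 in WT, Ccnd2, Ccne1, Mcm5 and Rrm1 in KI), and 14 others were on genes that did not pass the stricter filter or the filter on the mean of all probe sets. Stmn1 passed as lower in WT Tregs than in WT Tconv with either block (adjusted p = 0.0407 and 0.0445). It also passed there with arrays centred on their median, with array weights and without WT Treg 2. Weak signals near the filter limit the low mitotic genes.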
